A study of Mus musculus with 6 samples.

Results

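The myosin binding proteins and myomesins are structural proteins of the thick filament and of the M-band, the line of cross-links at the middle of the sarcomere. The 6 genes described here, *Mybpc1*, *Mybpc2*, *Mybph*, *Myom1*, *Myom2* and *Myom3*, were chosen by gene name from the 55421 genes measured, and all 6 were found in every library. The cells were C2C12, a mouse myoblast line that fuses into myotubes when serum is lowered. They carried a stable GFP plasmid whose transcript ends in either 5 CUG repeats (CUG5, the normal group) or 200 CUG repeats (CUG200, the DM1 group, a model of myotonic dystrophy type 1, in which an expanded CUG repeat in an RNA is toxic to muscle). Both groups were selected with G418, were switched to the same low-serum, insulin-containing differentiation medium, and gave total RNA for sequencing at differentiation day 4. Each group had 3 libraries. The paper calls the 3 libraries of a group biological replicates. The sources used here name neither the plasmid's promoter nor the number of clones behind each line. They also do not say whether the libraries came from separate transfections, so the p-values measure the spread between these libraries only.

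In striated muscle, myosin binding protein C lies in stripes along the thick filament, where it binds myosin, titin and actin and tunes how myosin heads engage the thin filament. *Mybpc1* encodes its slow skeletal form and *Mybpc2* its fast skeletal form, while *Mybph* encodes myosin binding protein H, a shorter relative that also binds myosin. Myomesins tie neighbouring thick filaments and titin together at the M-band: *Myom1* encodes myomesin itself, *Myom2* encodes M-protein, which is characteristic of fast fibres, and *Myom3* encodes the remaining relative, found in a subset of fibres.

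All 6 genes were lower in the DM1 group than in the normal group. *Mybpc2* and *Mybpc1* fell the most, to 37.3% and 43.6% of the normal mean, *Myom1*, *Mybph* and *Myom3* fell to 52.4%, 55.3% and 59.4%, and *Myom2* fell the least, to 66.4% (CPM, the share of a library's counts after TMM scaling). All 6 passed an adjusted p of 0.05 in the quasi-likelihood test of edgeR (p-values adjusted by Benjamini-Hochberg), where 8.73% of the 19005 genes tested were called lower at that threshold. The median log2 fold change of the 6 genes was -0.89, against 0.02 over all genes tested. For each of the 6, every DM1 library lay under every normal library, which held for 19.3% of all genes tested.

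The libraries held 61707889 to 80957325 counts, in which 1 count stood for 75 aligned bases and 4 counts for about 1 sequenced fragment. Mitochondrial genes took 9.04% to 12.6% of the counts in the normal group and 8.90% to 13.5% in the DM1 group. In bulk RNA, fewer myotubes and less RNA per myotube cannot be told apart. The 10 myotube markers, among them *Myog*, *Ckm* and *Myh3*, summed to 9040 to 10649 TPM (the deposited abundance per length) in the normal group. In the DM1 group they summed to 4738 to 6921 TPM. Of the 10, 7 were lower, 0 were higher and 3 did not pass the adjusted p, with none at 0. *Acta1* alone held 4051 to 5296 TPM of the normal sum. *Mymx*, a marker that did not pass, had a log2 fold change of 0.23 (edgeR adjusted p = 0.0732). By CPM every DM1 library lay over every normal library for *Mymx*, as for 3402 of the 19005 genes tested. The part of these markers in the changes of the myosin binding proteins and myomesins was not tested.

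In the GRCm38 annotation, *Mybpc1* (ENSMUSG00000020061) lies at chr10:88518279-88605152 on the minus strand and *Mybpc2* (ENSMUSG00000038670) at chr7:44501699-44524656 on the minus strand. *Mybph* (ENSMUSG00000042451) lies at chr1:134193448-134201232, *Myom1* (ENSMUSG00000024049) at chr17:71002633-71126856, *Myom2* (ENSMUSG00000031461) at chr8:15057653-15133541 and *Myom3* (ENSMUSG00000037139) at chr4:135759715-135815564, all on the plus strand. They thus sit on 6 different chromosomes. Promoter sequence was matched by symbol in RefSeq (GRCm38.p6) for 5 of the 6 genes, *Myom2* being the other. Since the 6 genes fell together, their start regions are shown from 150 bases before to 20 bases after the RefSeq start, 5′ to 3′ on the gene's own strand, at chr10:88605133-88605302 (minus) for *Mybpc1*, chr7:44524650-44524819 (minus) for *Mybpc2*, chr1:134193298-134193467 (plus) for *Mybph*, chr17:71019407-71019576 (plus) for *Myom1* and chr4:135759565-135759734 (plus) for *Myom3*. Capitals mark E-boxes (CANNTG, the letters bound by MyoD and myogenin), the MEF2 motif and the CArG box of serum response factor.
Mybpc1: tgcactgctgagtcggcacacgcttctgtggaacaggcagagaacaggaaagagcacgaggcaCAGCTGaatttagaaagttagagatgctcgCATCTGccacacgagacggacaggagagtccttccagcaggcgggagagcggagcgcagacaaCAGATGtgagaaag
Mybpc2: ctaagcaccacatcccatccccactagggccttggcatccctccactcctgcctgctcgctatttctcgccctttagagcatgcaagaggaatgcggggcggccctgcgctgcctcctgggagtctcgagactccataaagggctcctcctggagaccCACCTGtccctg
Mybph: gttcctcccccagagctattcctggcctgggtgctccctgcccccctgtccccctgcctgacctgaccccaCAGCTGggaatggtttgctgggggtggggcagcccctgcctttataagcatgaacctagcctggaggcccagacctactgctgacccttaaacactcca
Myom1: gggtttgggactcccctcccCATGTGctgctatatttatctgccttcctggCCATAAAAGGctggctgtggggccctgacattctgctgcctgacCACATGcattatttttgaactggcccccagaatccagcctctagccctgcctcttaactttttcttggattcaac
Myom3: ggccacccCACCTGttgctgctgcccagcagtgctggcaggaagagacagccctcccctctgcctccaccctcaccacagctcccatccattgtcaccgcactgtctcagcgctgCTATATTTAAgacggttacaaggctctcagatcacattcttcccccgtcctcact

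Motifs were searched on both strands in the whole window of 300 bases, from 250 before to 50 after the start. CANNTG was found in all 5 windows, 10 matches in all, and in 72.3% of the 32851 RefSeq promoters of the same length. Its form CAGCTG, which overlaps CANNTG by construction, was in *Mybpc1* from position -87 and in *Mybph* from position -79 relative to the start (16.3% of all promoters). The other muscle form, CACCTG, was in *Mybpc2* from positions -157 and 9 and in *Myom3* from position -142 (20.2%). The MEF2 motif was in *Myom3* alone, from -35 to -26 (3.19%), and the CArG box in *Myom1* alone, from -99 to -90 (1.63%). CATTCC, the letters of the TEAD site, was in *Mybpc2* from -62 and in *Mybph* from -73 (14.7%), both read as GGAATG on the gene's own strand. TATAAA was in *Mybph* from -39 on the opposite strand only, where the gene's own strand reads TTTATA (13.6% of promoters, either strand). A match is a stretch of letters and not a measured binding site.

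**Figure D1:**
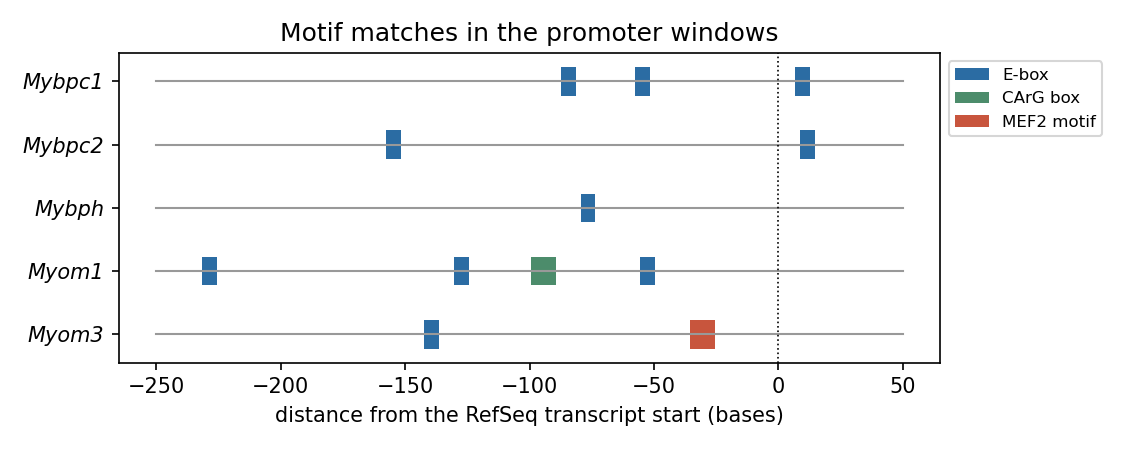
Motif matches in the 300-base start regions of the 5 genes with a RefSeq promoter, drawn by distance from the start in bases. All 5 hold CANNTG, while the MEF2 motif is in *Myom3* alone and the CArG box in *Myom1* alone.

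Factors that bind such letters were measured in the same libraries. Of 10 myogenic transcription factors, 5 were lower in the DM1 group, 0 were higher and 5 did not pass, with a median log2 fold change of -0.49. *Myog*, myogenin, fell by 0.65 on the log2 scale (edgeR adjusted p = 0.00227) and *Myod1*, MyoD, fell by 0.52 (adjusted p = 0.0129). *Srf*, serum response factor, fell by 0.47 (edgeR adjusted p = 0.0462). *Mef2c*, a factor of the MEF2 motif that is named after its values were seen, fell by 1.01 (edgeR adjusted p = 0.0471) and was the only one of the 10 past both cutoffs, while *Mef2a* and *Mef2d* had log2 fold changes of -0.37 and -0.06 and did not pass. The normal *Mef2c* level was 58.4, 67.5 and 119 CPM, highest in CUG5-3, without which its log2 fold change was -0.62 (edgeR adjusted p = 0.0238). The *Mef2c* call was lost without CUG5-2, CUG200-1, CUG200-2 or CUG200-3 (edgeR adjusted p = 0.0680 to 0.186), the *Srf* call without any library but CUG200-3 (0.108 to 0.154), and the *Myod1* call without CUG5-3 (0.0685) or CUG200-2 (0.0628). The *Mef2c* call was also lost in edgeR with all genes of at least 1 count (adjusted p = 0.112), and the *Srf* call with library sizes alone (0.0773), without robust estimation (0.0553) and in limma (0.350 and 0.356 with pseudocounts of 1 and 0.1). Binding at the promoters above was not measured, and the part of these factors in the changes was not tested.

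The slow form of myosin binding protein C, *Mybpc1*, stood at 5.60, 7.55 and 5.08 TPM in the libraries CUG5-1, CUG5-2 and CUG5-3, and at 1.97, 2.15 and 4.18 TPM in CUG200-1, CUG200-2 and CUG200-3. CUG5-2 was the highest of the normal libraries and CUG200-3 stood above the other DM1 libraries, and the groups did not overlap. Mean CPM was 9.70 ± 1.25 (SD, n = 3) in the normal group and 4.23 ± 0.945 (SD, n = 3) in the DM1 group. *Mybpc1* fell by 1.20 on the log2 scale (SE 0.185, 95% interval -1.62 to -0.78, edgeR adjusted p = 0.00550). The lowest normal CPM was 1.62 times the highest DM1 CPM. The gene rested on 66 to 182 fragments a library, for which counting alone gives a coefficient of variation of 7.41% to 12.3%.

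*Mybpc2*, the fast form, had the lowest level and the largest fall of the 6 genes. It stood at 2.89, 2.16 and 3.14 TPM in the normal libraries and at 0.687, 1.01 and 1.14 TPM in the DM1 libraries, so that the groups were clear of each other. Mean CPM was 5.88 ± 1.14 (SD, n = 3) against 2.19 ± 0.374 (SD, n = 3), and the lowest normal CPM was 1.97 times the highest DM1 CPM, the widest gap of the 6. The log2 fold change was -1.42 (SE 0.207, 95% interval -1.90 to -0.95, edgeR adjusted p = 0.00441). Only 33 to 123 fragments a library lay behind these values, with a counting coefficient of variation of 9.02% to 17.4%. *Mybpc1* and *Mybpc2* were the 2 genes of the 6 past both an adjusted p of 0.05 and an absolute log2 fold change of 1, cutoffs that 0.816% of genes tested passed in the lower direction. Both 95% intervals reached past a log2 fold change of -1, and neither gene passed edgeR's glmTreat test against that fold.

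The relative *Mybph* was by far the most abundant of the 6 genes. Its level was 830.4, 668 and 716 TPM in the normal libraries and 307, 345 and 465 TPM in the DM1 libraries. CUG200-3 was again the highest DM1 library and still lay under CUG5-2, the lowest normal library. Mean CPM was 826 ± 50.6 (SD, n = 3) in the normal group and 457 ± 55.2 (SD, n = 3) in the DM1 group. *Mybph* fell by 0.85 on the log2 scale (SE 0.107, 95% interval -1.10 to -0.61, edgeR adjusted p = 0.00270). With 7670 to 18301 fragments a library, counting error was 0.739% to 1.14% and the spread between libraries was larger than that.

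**Figure D2:**
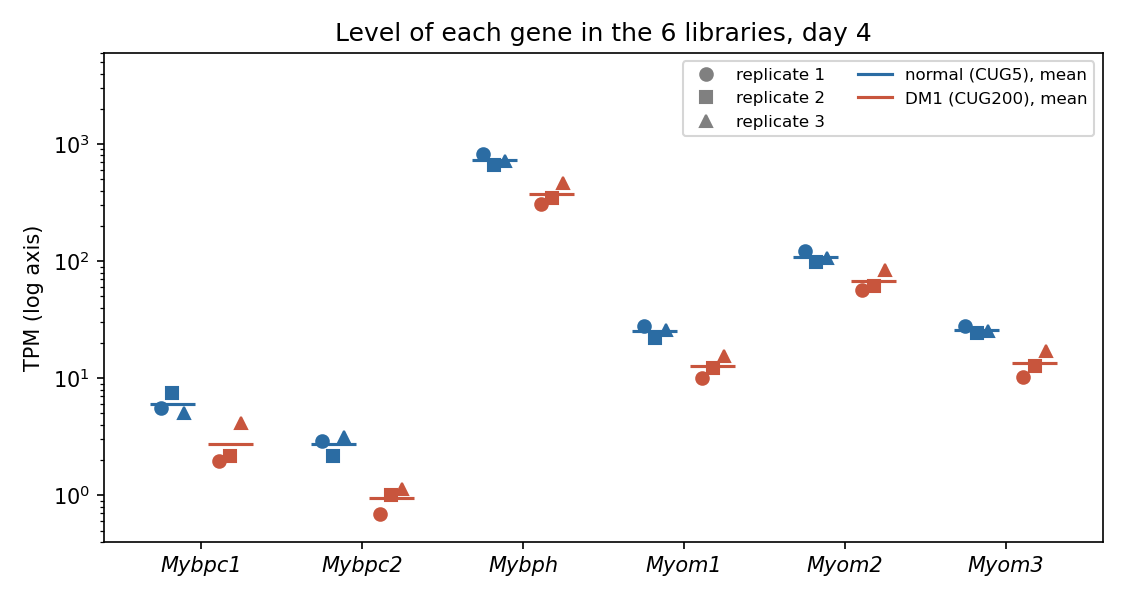
Level of each gene in TPM (log axis) in the 3 CUG5 and 3 CUG200 libraries, 1 point a library, with the mean of each group. For all 6 genes every CUG200 point lies under every CUG5 point, from *Mybph* at 307 to 830.4 TPM down to *Mybpc2* at 0.687 to 3.14 TPM.

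Of the myomesins, *Myom1* had the smallest p of the 6 genes and ranked 60 of 19005 by p. Its level was 27.7, 22.1 and 25.6 TPM in the normal libraries and 9.99, 12.2 and 15.6 TPM in the DM1 libraries, with no overlap. Mean CPM was 74.9 ± 5.88 (SD, n = 3) against 39.3 ± 2.88 (SD, n = 3), and the log2 fold change was -0.93 (SE 0.0943, 95% interval -1.15 to -0.72, edgeR adjusted p = 0.00159). The lowest normal CPM was 1.66 times the highest DM1 CPM.

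*Myom2*, encoding M-protein, was the most abundant myomesin and the one that fell least. It stood at 121, 97.9 and 107 TPM in the normal libraries and at 56.8, 61.8 and 83.4 TPM in the DM1 libraries. The groups did not overlap, but the gap was the narrowest of the 6 genes: the lowest normal CPM was 1.24 times the highest DM1 CPM. Mean CPM was 315 ± 25.3 (SD, n = 3) against 209.6 ± 19.2 (SD, n = 3). *Myom2* fell by 0.59 on the log2 scale (SE 0.101, 95% interval -0.82 to -0.36, edgeR adjusted p = 0.00780).

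*Myom3* lay close to *Myom1* in level, at 28.2, 24.3 and 25.2 TPM in the normal libraries and 10.3, 12.7 and 17.2 TPM in the DM1 libraries. CUG200-3 was once more the highest DM1 library, and the groups did not overlap. Mean CPM was 57.6 ± 3.26 (SD, n = 3) against 34.2 ± 5.52 (SD, n = 3), and the log2 fold change was -0.75 (SE 0.120, 95% interval -1.03 to -0.48, edgeR adjusted p = 0.00620).

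Within the DM1 group the 6 genes tended to be ordered alike across libraries. By CPM, CUG200-3 was the highest DM1 library for 5 of the 6 genes (*Mybpc2* was highest in CUG200-2), and CUG200-1 was the lowest for 5 (*Mybpc1* was lowest in CUG200-2). In the normal group CUG5-1 was the highest library for 4 genes, and CUG5-2 was the lowest for 5 and the highest for *Mybpc1*. The highest library of a group stood 1.11 to 1.48 times above the lowest in the normal group and 1.14 to 1.45 times in the DM1 group. CUG200-3 also had the smallest mitochondrial share of the DM1 libraries, 8.90% against 13.5% and 13.4%, and CUG5-1 the smallest of the normal libraries, 9.04% against 12.3% and 12.6%. The part of that share in the order was not tested.

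Per length, the order of levels was the same in both groups: *Mybph*, *Myom2*, *Myom3* and *Myom1* together, *Mybpc1*, *Mybpc2*. *Mybph* stood 6.78-fold over *Myom2* in the normal group and 5.52-fold in the DM1 group (geometric means of TPM ratios). *Myom2* stood 4.20-fold over *Myom3* in the normal group and 5.07-fold in the DM1 group. *Myom3* and *Myom1* were not separated, at ratios of 1.03 and 1.06. *Mybpc1* stood 2.22-fold over *Mybpc2* in the normal group and 2.82-fold in the DM1 group.

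Shares within a family ask whether its genes fell in proportion. *Myom2* made up 68.5%, 67.9% and 67.9% of the summed myomesin TPM in the normal libraries and 73.7%, 71.3% and 71.8% in the DM1 libraries, a rise of 4.16 percentage points with no overlap (exact permutation test, two-sided p = 0.1, n = 3 and 3). The *Myom1* share was 15.6%, 15.3% and 16.2% against 13.0%, 14.1% and 13.4%, and the *Myom3* share was 15.9%, 16.8% and 15.9% against 13.3%, 14.6% and 14.8%. The DM1 minus normal differences were -2.21 and -1.95 points, each without overlap (exact permutation p = 0.1). By CPM, which is not divided by length, the *Myom3* difference was -0.84 points and the groups overlapped (exact permutation p = 0.3). With 3 libraries against 3 the exact test cannot go under 0.1, so none of these differences could pass 0.05. For myosin binding protein C, the *Mybpc1* share of *Mybpc1* and *Mybpc2* was 65.9%, 77.8% and 61.8% in the normal group and 74.1%, 68.2% and 78.5% in the DM1 group. Those groups overlapped, and a difference of 5.12 points was within the spread between libraries (exact permutation p = 0.4). It was 3.42 points by CPM, 9.76 without CUG5-2, 7.85 without CUG200-2, 2.66 without CUG200-3 and 1.77 without CUG5-3. Without CUG5-2 the TPM shares of the groups did not overlap (exact permutation p = 0.2).

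**Figure D3:**
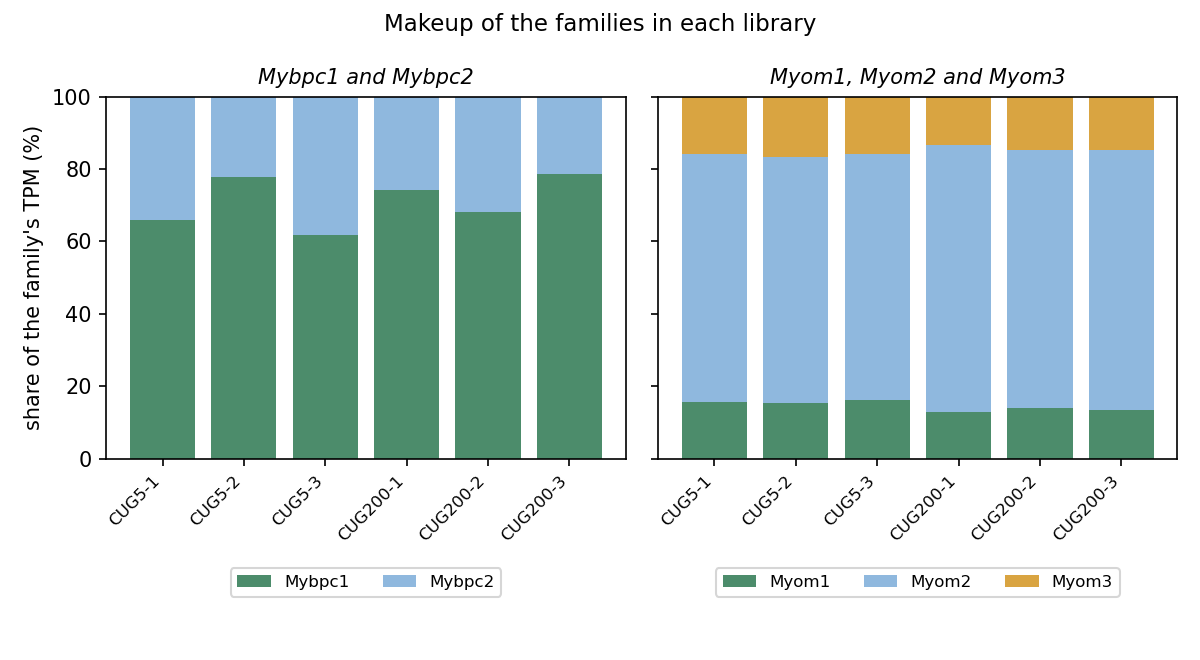
Share of the family's summed TPM (%) taken by each gene in each library, for *Mybpc1* with *Mybpc2* and for the 3 myomesins. The *Myom2* share is 67.9% to 68.5% in the CUG5 libraries and 71.3% to 73.7% in the CUG200 libraries, while the *Mybpc1* share overlaps between the groups.

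The ratios of all 15 pairs of the 6 genes were also compared, a comparison chosen after the data were seen. No pair passed after adjustment (exact permutation tests, adjusted p = 0.136 to 0.6), and none could have, since the smallest exact p is 0.1. The largest shift was that of *Mybpc2* against *Myom2*, whose log2 ratio differed by -0.83 (DM1 minus normal).

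To place the 6 genes in the sarcomere, 4 lists of sarcomere genes and their partners were followed in the same fit. Of these lists 61 genes were tested: 43 were lower, 0 were higher and 18 did not pass. Their median log2 fold change was -0.62. Not all 61 are structural, since the list of thick filament and M-band partners also holds chaperones and other non-structural genes. Among those, *Unc45b* and *Smyd1* fell, while *Hsp90aa1* and *Nbr1* had log2 fold changes of 0.19 and 0.06 and did not pass. Of these 61, 6 fell more than *Mybpc2*, 10 more than *Mybpc1*, 15 more than *Myom1*, 20 more than *Mybph*, 24 more than *Myom3* and 34 more than *Myom2*.

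The nearest partners in the thick filament and M-band gave 9 lower, 0 higher and 7 not past among 16 tested, with a median of -0.53. *Unc45b*, a myosin chaperone, fell by 1.25 on the log2 scale (edgeR adjusted p = 0.00114), and *Smyd1*, a methyltransferase that acts with it in thick filament assembly, fell by 0.90 (adjusted p = 0.00104). *Ank1*, whose small muscle form links the sarcoplasmic reticulum to the contractile apparatus, fell by 1.02 (adjusted p = 0.00114), and *Ckm*, the muscle creatine kinase that sits at the M-band, fell by 0.84 (adjusted p = 0.00159). *Ttn*, titin, the giant protein that the myomesins and myosin binding protein C hold, fell by 0.91 (SE 0.138, adjusted p = 0.00517). *Obsl1*, which encodes a cytoskeletal linker at the M-band, fell by 0.40 (edgeR adjusted p = 0.0364), a call lost without any library but CUG200-3 (adjusted p = 0.0827 to 0.140), with library sizes alone (0.0689) and in limma (0.0791 and 0.0753 with pseudocounts of 1 and 0.1). The cardiac form *Mybpc3* had 0 counts in every library, and *Mybphl* had 3 counts in CUG200-3 and 0 in the others. A count of 0 allows up to 3 fragments, or 12 of these counts, in a library.

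Myosin chains had the largest median fall of the 4 lists, -1.37, with 10 lower, 0 higher and 2 not past among 12 tested. The neonatal heavy chain *Myh8* fell by 2.90 on the log2 scale (edgeR adjusted p = 7.65e-05), and the slow chain *Myh7* fell by 2.13 (adjusted p = 0.000997). The cardiac chain *Myh6* fell by 2.01 (adjusted p = 0.00205) and the embryonic chain *Myh3* fell by 1.32 (adjusted p = 0.00270). In the thin filament 11 of 17 were lower, 0 were higher and the median was -0.50, with log2 fold changes of -1.08 and -0.72 for the leiomodins *Lmod3* and *Lmod2* and of -0.91 and -0.77 for the actins *Acta1* and *Actc1*. At the Z-disc 13 of 16 were lower, 0 were higher and the median was -0.62, with log2 fold changes of -1.22 and -0.68 for the alpha-actinins *Actn2* and *Actn3*. *Nrap* and *Myoz2*, further Z-disc and myofibril assembly proteins, had log2 fold changes of -1.03 and -0.62. These lists were chosen with results of these libraries known, so their counts are a description.

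**Figure D4:**
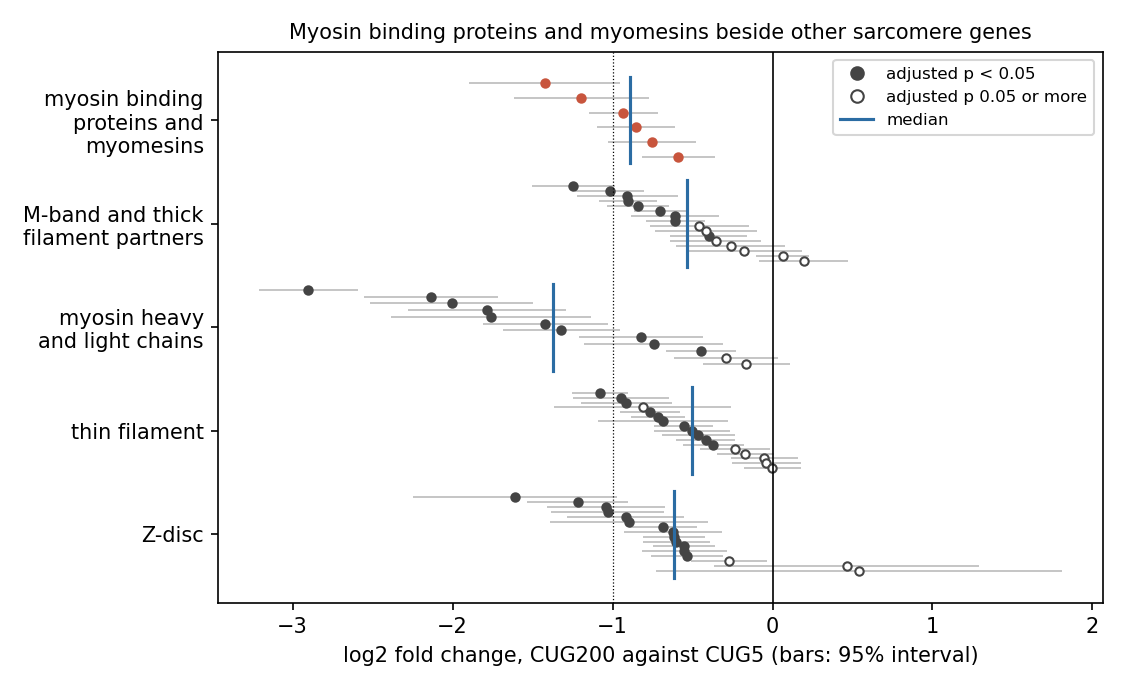
Log2 fold change, CUG200 against CUG5, with 95% intervals for the 6 genes (red) and for 4 lists of sarcomere genes; filled points passed an adjusted p of 0.05 and blue lines are medians. The 6 genes lie between -1.42 and -0.59, around a median of -0.89, while the myosin chains reach -2.90.

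Markers of other cells were followed beside these changes. Of 5 fibroblast markers tested 3 were higher in the DM1 group and 0 lower, with *Col1a1*, a collagen chain, higher by 1.06 on the log2 scale (edgeR adjusted p = 0.000916). The list summed to 1500 to 1771 TPM in the normal group and 1749 to 2115 TPM in the DM1 group, and *Tcf21* was at 0 in all libraries. Of 4 smooth muscle markers, *Tagln* and *Cnn1* were higher, by 1.31 and 1.54 on the log2 scale, and *Acta2* and *Myh11*, the smooth muscle myosin heavy chain (mean 0.0609 TPM in the normal and 0.0116 TPM in the DM1 group), did not pass, with sums of 2333 to 2821 TPM and 2662 to 3125 TPM. Among 10 markers of undifferentiated myoblasts, *Cd34* and *Id2* were higher, *Hes1* was lower and 7 did not pass, with sums of 417 to 467 TPM and 424 to 473 TPM. Of 2 adipocyte markers tested neither passed, *Adipoq* and *Fabp4*, not tested, being at 0. The part of these markers in the fall of the 6 genes was not tested.

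The files allowed a further look at which transcripts were read. Dividing the counts by the deposited FPKM gave a coverage-weighted mean transcript length for each gene, a measure added after the data were seen. *Myom3* had a mean length of 3787, 3648 and 3797 bases in the normal libraries and 4049, 3890 and 4023 bases in the DM1 libraries. The means, 3744 ± 83.0 (SD, n = 3) and 3987 ± 85.2 (SD, n = 3) bases, differed by 243 bases without overlap (exact permutation p = 0.1, the smallest possible). Of 10688 genes with more than 1 transcript and enough counts, 13.4% had groups that did not overlap in this measure. *Myom3* has annotated transcripts of 5575, 2551 and 817 bases. For the other 5 genes the groups overlapped, with exact permutation p between 0.2 and 0.6. *Mybpc2*, at 3612 to 3621 bases, stayed near its transcript of 3611 bases in every library.

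Some reads could belong to genes on the opposite strand, since the sources used here do not say whether counting used strand. *Mybph* shares 1162 exonic bases with *Adora1*, which had 872 to 2586 counts against 30679 to 73201 for *Mybph* and a log2 fold change of -0.04 (edgeR adjusted p = 0.973). *Myom1* shares 207 bases with *Myl12a*, a non-muscle myosin light chain with 37892 to 59845 counts against 2674 to 6728 for *Myom1*. *Myl12a* had a log2 fold change of 0.12 (edgeR adjusted p = 0.521). *Mybpc1* and *Mybpc2* share 252 and 192 bases with *Gm48752* and *Gm44646*, each of which had at most 24 counts in a library.

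Across the 6 libraries, the genes most like each of the 6 were sought by Pearson's r of log2 CPM among 11687 genes of at least the level of *Mybpc2*. These values are a description, since the libraries share scaling and fall into both groups. For *Mybpc1* the nearest were *Sbk2*, *Map2k2* and *Brd2*, for *Mybpc2* *Opa1*, *Nedd9* and *Hipk1*, and for *Mybph* *Timm29*, *Ntn1* and *Sik1*. For *Myom1* they were *Pam*, *Cln8* and *Plpp7*, for *Myom2* *Mid1ip1*, *Erlin2* and the fast myosin heavy chain *Myh2*, and for *Myom3* *Noc4l*, *Got2* and *Slco3a1*. All 18 had r of 0.996 to 1.00, while r between the 6 genes ran from 0.905 (*Mybpc1* and *Mybpc2*) to 0.994 (*Mybph* and *Myom3*).

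The direction and the adjusted p of all 6 genes held under other scalings, filters, tools and with each library left out. The number past the fold cutoff as well did not: it was 2 in edgeR, 1 in limma on log2(TPM + 1) (*Mybph*), and 4 in limma on log2(TPM + 0.1), which added *Mybph* and *Myom1*.

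**Figure D5:**
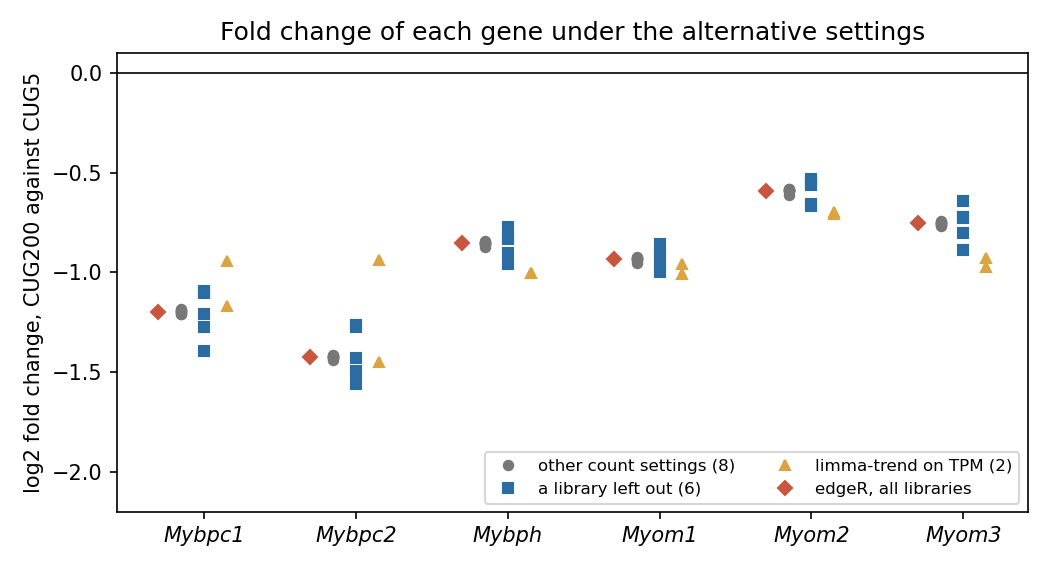
Log2 fold change of each gene, CUG200 against CUG5, under the main setting and the alternatives, including each library left out in turn. Every value is under 0, from -1.56 for *Mybpc2* to -0.53 for *Myom2*.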

How the data were processed

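RNA-seq of 6 C2C12 libraries was analysed, 3 a group by the labels. Per the labels, the authors used Trim Galore, HISAT2 and StringTie on GRCm38, versions not given in the sources used here. The authors deposited a count matrix and, per library, coverage, FPKM and TPM; a deposited count is the aligned bases of a gene divided by 75, not a read, and about 4 such counts are 1 fragment, so 75 was taken as a fixed divisor and not as the read length. Deposited coverage (signal) was used only to learn that unit, and FPKM for the mean transcript length and as an alternative to TPM.

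Counts were tested with edgeR 4.0.16 (filterByExpr, TMM, robust quasi-likelihood, Benjamini-Hochberg over 19005 genes, R 4.3.3), which was tested on simulated data. TPM shares were compared by exact two-sided permutation tests in scipy 1.17.1. Intervals per library cover counting error only. Alternatives used DESeq2 1.42.0, limma 3.58.1, other scalings and filters, glmTreat and left-out libraries. Promoters and annotation came from RefSeq (GRCm38.p6) and GENCODE M21, in which 55154 of 55421 gene IDs matched.

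The genes and lists were chosen with earlier results of these data known. Named genes were the 6, up to 4 per list with the smallest p past the adjusted threshold, *Mybpc3*, *Mybphl*, *Obsl1* and *Ttn*, and the 3 most correlated genes of each of the 6. Some genes that this rule names are not reported here. Outside it, *Mymx*, *Mef2c*, *Mef2a*, *Mef2d*, *Hsp90aa1*, *Nbr1*, *Acta2*, *Myh11*, *Adipoq*, *Fabp4* and *Tcf21*, from the lists, were named after their values were seen. So were the opposite-strand neighbours *Adora1*, *Myl12a*, *Gm48752* and *Gm44646*. Fibre-type lists are given in the closing section.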

Additional observations from a re-analysis of the deposited data

How the results depend on the processing

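All 6 genes were lower with an adjusted p under 0.05 in edgeR, DESeq2 or limma under 16 alternatives. Against a log2 fold change of 1 (glmTreat), the values -1.20 (*Mybpc1*), -1.42 (*Mybpc2*), -0.85 (*Mybph*), -0.93 (*Myom1*), -0.59 (*Myom2*) and -0.75 (*Myom3*) did not pass. Of the 6, the number past both cutoffs was 1 and 4 in limma with pseudocounts of 1 and 0.1, and 0 with glmTreat. The median log2 fold change of all genes was 0.02 in edgeR on counts, and -0.06 and -0.09 in limma on TPM with those pseudocounts.

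Leaving out 1 library gave log2 fold changes of -1.40 to -1.09 (*Mybpc1*), -1.56 to -1.26 (*Mybpc2*), -0.96 to -0.77 (*Mybph*), -0.995 to -0.86 (*Myom1*), -0.67 to -0.53 (*Myom2*) and -0.89 to -0.64 (*Myom3*). Over all genes, it gave 485 to 2111 lower and 543 to 1678 higher genes, and 91 to 192 lower and 181 to 271 higher past both cutoffs, against 1660, 1356, 155 and 259. The lower count was 668, 774, 485 and 568 without CUG5-1, CUG5-2, CUG5-3 and CUG200-2. In limma it was 816 and 850, the higher count 427 and 434, those past both cutoffs 79 lower with 61 higher (pseudocount 1) and 194 lower with 171 higher (0.1), and with glmTreat 1 and 3. The causes were not tested.

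With the replicate number as a replicate block, the log2 fold changes were -1.21, -1.42, -0.86, -0.93, -0.59 and -0.76 in the order above, with 1497 lower and 1326 higher genes. Same-numbered libraries had correlations of 0.0675, 0.0222 and 0.0263, and CUG5-3 correlated best with another number, so the numbers were not read as pairs. Depth limits *Mybpc2* and *Mybpc1* most.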

Other observations

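Fibre-type genes were read beside the slow and fast forms of myosin binding protein C. Of 10 fast fibre genes 7 were lower in the DM1 group, 0 higher and 3 did not pass, the median log2 fold change being -0.59, and the fast heavy chains *Myh1* and *Myh4* had log2 fold changes of -1.78 and -1.42. Of 6 slow fibre genes tested 5 were lower and 0 higher, with a median of -0.65, among them *Atp2a2*, the slow calcium pump, at -0.997, and the slow troponins *Tnnt1* and *Tnni1*, at -0.56 and -0.42. Of 5 embryonic and neonatal genes 4 were lower and 0 higher, with a median of -0.77, and the embryonic light chain *Myl4* fell by 0.45. The differences between these lists were not tested.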
